A study of Mus musculus with 9 samples.

Results

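Purine receptors and enzymes that break down ATP and adenosine were followed in cultured mouse macrophages as 10 genes chosen by symbol, out of 46095 gene symbols in the count table. All 10 were found and all 10 passed the filter on low counts, with at least 34 counts in every library. These genes were chosen with earlier results of these data known, so their detection is no independent result. They were the nucleotide receptor genes P2ry1, P2ry2, P2ry6 and P2ry14, the ATP-gated channel genes P2rx4 and P2rx7, the adenosine receptor genes Adora2a and Adora2b, and the enzyme genes Entpd1 and Ada. The cells were bone marrow-derived macrophages of wild type Balb/c mice, with an age of 6 weeks in the labels, in 3 groups of 3 libraries each, which had no treatment (control), LPS, or LPS together with BHB (LPS plus BHB). The labels do not spell out these abbreviations and give neither dose nor time. LPS is the usual abbreviation of lipopolysaccharide, a bacterial product that activates macrophages, and BHB that of the ketone body beta-hydroxybutyrate. BHB without LPS was not analysed here, so each BHB comparison is one of LPS-treated cells. Whether the replicates of a group came from separate cultures or animals is not stated, so the p-values rest on library-to-library spread alone, which may be technical.

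Cells release ATP and other nucleotides when they are stressed, activated or damaged, and neighbouring cells read them through P2X channels, which open on ATP, and P2Y receptors, which signal through G proteins. Ectoenzymes then remove the phosphates stepwise, so that ATP becomes AMP and finally adenosine. Adenosine acts on its own receptors, of which the products of Adora2a and Adora2b raise cyclic AMP and dampen many inflammatory responses of macrophages. Adenosine deaminase ends that signal by turning adenosine into inosine.

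Library totals ran from 29633411 to 32798920 counts. All 10 listed macrophage markers were tested, and their summed level was 19154 to 22562 CPM (counts per 1000000 counts of the library, scaled with TMM factors) in control. In the LPS libraries it was 9316 to 10679 CPM, and in those with BHB added 15141 to 15672 CPM. Dendritic cell markers, a list that includes Itgax, which macrophages also express, summed to 345 to 615 CPM over the 9 libraries. The lists for neutrophils, lymphocytes, mast cells, platelets and erythroid cells, and stromal cells each stayed at or under 14.5 CPM in every library, and Mcpt4, Tpsb2 and Ms4a2 had no count. Platelet and erythroid markers, of interest because platelets carry P2Y receptors, summed to 1.02 to 1.35 CPM in control, 0.461 to 0.874 CPM with LPS, and 1.48 to 2.10 CPM once BHB was added. The part of these marker levels in the members' results was not tested. In bulk RNA, fewer cells of a type and less RNA per cell cannot be told apart. Control replicates 2 and 3 held 1739 and 1808 counts of Acod1, a gene induced by LPS and looked up after its values were known, against 24 in control replicate 1 and 156090 to 172641 in the LPS libraries. Adora2a, its ratio to Adora2b, and Cd38, which all had few control counts and fewest in replicate 1, are therefore also given without those 2 libraries. This choice was made after the values were seen and keeps the lowest control library. A larger difference with LPS was thus given in advance and tests nothing.

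With LPS, 9 of the 10 members passed the threshold (adjusted p under 0.05 in the quasi-likelihood test of edgeR, with the Benjamini-Hochberg method over all genes), 4 of them higher and 5 lower. Of all 14026 genes tested, 79.8% passed, 38.4% higher and 41.4% lower, so the members' share is near this background. A change of at least 2-fold was called for 8 members, 3 higher and 5 lower, against 45% of all genes (18.7% higher and 26.3% lower). The median log2 fold change of the members was -0.95 and that of all genes -0.06, with median sizes of 2.03 and 0.90 regardless of sign. When BHB was added to LPS, 8 of 10 members passed, 6 higher and 2 lower, where 50.7% of all genes passed (26.4% higher and 24.4% lower). Changes of at least 2-fold were called for 4 members, 3 higher and 1 lower, against 11.2% of all genes (7.89% higher and 3.36% lower), and the median log2 fold changes were 0.45 for the members and 0.01 for all genes. The groups did not overlap for 8 members in each of these comparisons, against 82.7% of all genes with LPS and 56.7% with BHB added. Because the members and the wider lists were chosen with earlier results of these data known, their shares describe them and test nothing. Under scaling by library totals alone the median log2 fold change of all genes shifted by -0.27 with LPS and -0.05 with BHB added, which gave 4284 genes higher and 7082 lower with LPS in place of 5390 and 5801. Directions are therefore relative to the TMM scaling, and the members whose call or sign moved under it are named with their values.

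**Figure D1:**
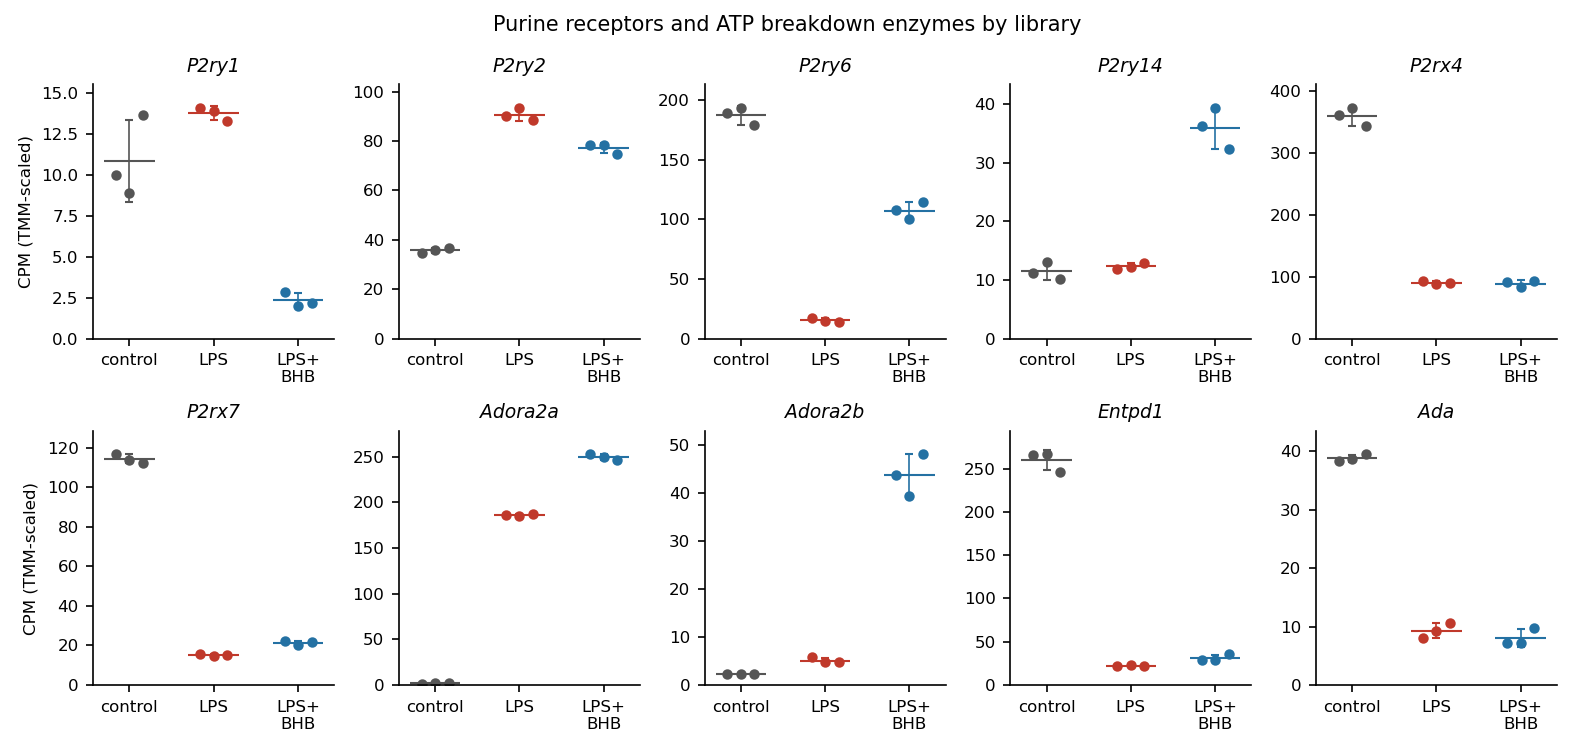
Level of each of the 10 genes in CPM (linear axes from 0), with 1 point per library, the group mean as a horizontal line and the SD over 3 libraries as a vertical bar. P2rx4, P2rx7, Entpd1 and Ada are highest in control and lower in both treated groups. Adora2a is high in both treated groups, Adora2b and P2ry14 are highest with LPS plus BHB, and P2ry6 drops with LPS and is higher again with BHB.

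The adenosine receptor genes held both the largest LPS response and the largest BHB response among the members. Adora2a (chromosome 10, 75316877 to 75334784, GRCm38, plus strand) encodes the high-affinity receptor that couples to cyclic AMP production. It was at 0.957, 2.22 and 2.45 CPM in the control libraries, 186.6, 185 and 186.9 CPM with LPS, and 253, 250 and 246 CPM with LPS plus BHB. All treated libraries lay far above all control libraries, and the LPS plus BHB libraries lay above the LPS libraries. The log2 fold change with LPS was 6.62 (SE 0.15, adjusted p = 9.83e-12), a fold of 98.5. The control level rested on 34, 83 and 89 counts, lowest in control replicate 1, and without control replicates 2 and 3 the fold was 194. That fit keeps only the lowest control library, so its larger fold was given in advance. Adding BHB raised Adora2a by a further 0.42 (SE 0.09, adjusted p = 0.00359). That call was lost with DESeq2 (adjusted p = 0.200) and held in the other 15 alternatives. The adjusted p of these varied widely, with 8.31e-13 as the lowest. It was 0.00654 with library totals alone and 1.09e-07 in the fit of the 6 libraries compared.

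Adora2b (chromosome 11, 62248984 to 62266453, plus strand) encodes the low-affinity adenosine receptor, which responds when adenosine is abundant. Its control libraries were at 2.34, 2.33 and 2.37 CPM, the LPS libraries at 5.80, 4.72 and 4.74 CPM, and the LPS plus BHB libraries at 43.8, 39.5 and 48.2 CPM. No 2 of the groups overlapped, and the step from LPS to LPS plus BHB was larger than the step from control to LPS. LPS raised it by a log2 fold change of 1.12 (SE 0.13, adjusted p = 1.49e-07) and BHB by another 3.10 (SE 0.10, adjusted p = 2.17e-15), a fold of 8.60. Without control replicates 2 and 3 the LPS value of Adora2b was 1.13.

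Because both receptors take the same ligand, their balance was compared within each library, as the ratio of counts per kilobase of exon. Adora2a stood at 0.247, 0.575 and 0.624 times the level of Adora2b in the control libraries, at 19.4, 23.6 and 23.8 times with LPS, and at 3.48, 3.81 and 3.08 times with LPS plus BHB. By this measure Adora2b was higher in every control library, and Adora2a in every treated library, by less with BHB than without. The side in control depends on the exon lengths used. By counts alone, Adora2a and Adora2b had 34 and 83 in control replicate 1, 83 and 87 in replicate 2, and 89 and 86 in replicate 3. The log2 ratio was 5.64 higher with LPS than in control (-1.17 ± 0.74, SD, n = 3) and differed by -2.69 between LPS plus BHB (1.78 ± 0.15, SD, n = 3) and LPS (4.47 ± 0.17), each with p = 0.10 in a two-sided exact permutation test, the smallest value that 3 against 3 libraries allow. Against control replicate 1 alone, an alternative added after the data were seen, the difference with LPS was 6.49 (p = 0.25 in the same exact permutation test, the smallest that 1 against 3 libraries allow).

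**Figure D2:**
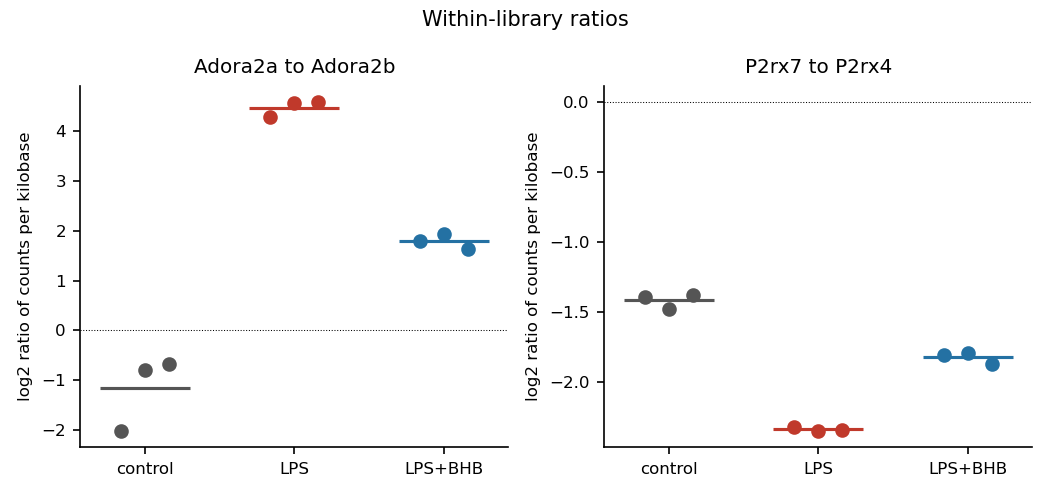
Log2 ratio of counts per kilobase of Adora2a to Adora2b (left) and of P2rx7 to P2rx4 (right), with 1 point per library and the group mean as a line. The first ratio is below 0 in control and highest with LPS, and the second is below 0 in all 9 libraries and lowest with LPS.

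Among the P2Y receptor genes, each of the 4 had a pattern of its own. P2ry6 (chromosome 7, 100937630 to 100974649, minus strand) encodes the UDP receptor, which drives phagocytosis and chemokine release in myeloid cells. It was at 189, 194 and 179 CPM in control, 16.9, 15.1 and 13.96 CPM with LPS, and 108, 99.96 and 115 CPM with LPS plus BHB. The LPS libraries lay lowest, and the LPS plus BHB libraries lay between them and control with no overlap. It fell by 3.61 on the log2 scale with LPS (SE 0.07, adjusted p = 1.73e-20) and rose by 2.81 when BHB was added (SE 0.07, adjusted p = 3.54e-17).

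P2ry2 (chromosome 7, 100996568 to 101012866, minus strand) lies 21.9 kb from P2ry6 and encodes the receptor for ATP and UTP, a sensor of the nucleotides that dying cells release. Its libraries were at 34.5, 35.8 and 36.7 CPM in control, 90.2, 93.5 and 88.3 CPM with LPS, and 78.4, 78.2 and 74.9 CPM with LPS plus BHB. Both treated groups lay above control, and LPS plus BHB lay just under LPS. P2ry2 rose by 1.35 with LPS (SE 0.05, adjusted p = 9.61e-16) and fell by 0.23 with BHB (SE 0.05, adjusted p = 0.000494). These neighbouring genes therefore moved in opposite directions in both comparisons.

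P2ry14 (chromosome 3, 59113855 to 59153618, minus strand) encodes the receptor for UDP-glucose, a released sugar nucleotide. It was at 11.1, 13.03 and 10.2 CPM in control, 11.9, 12.2 and 12.9 CPM with LPS, and 36.2, 39.4 and 32.3 CPM with LPS plus BHB. Control and LPS overlapped, and every LPS plus BHB library lay above both. The log2 fold change with LPS was 0.10 (SE 0.10, adjusted p = 0.349) and turned to -0.17 with library totals alone (adjusted p = 0.128), while BHB raised the gene by 1.54 (SE 0.10, adjusted p = 3.26e-11). P2ry14 lies inside Med12l, which runs on the opposite strand, shares no exon bases with it and had 2 to 34 counts per library.

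P2ry1 (chromosome 3, 61002795 to 61008982, plus strand) encodes an ADP receptor best known from platelets. It was at 9.96, 8.91 and 13.7 CPM in control, 14.1, 13.9 and 13.3 CPM with LPS, and 2.81, 2.01 and 2.19 CPM with LPS plus BHB. Control replicate 3 lay within the range of the LPS libraries, and the LPS plus BHB libraries lay under all others. BHB lowered it by 2.55 on the log2 scale (SE 0.17, adjusted p = 9.21e-11), a fold of 5.87. The difference with LPS, 0.34 (SE 0.14, adjusted p = 0.0299), depends on the setting and kept its call in 11 of 16 alternatives, with no change of sign. In the other 5 the call was lost: with library totals alone (0.07, adjusted p = 0.657), without control replicate 1 (adjusted p = 0.109) or 2 (0.181), and without LPS replicate 1 (0.0706) or 2 (0.0611). An antisense gene, Gm37035, covers 992 bases (23.1%) of the exons of P2ry1 and is listed with 0 to 1 counts per library, and no source used here states whether the counting used strand.

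The P2X channel genes fell with LPS and recovered little or not at all with BHB. P2rx7 (chromosome 5, 122643911 to 122691432, plus strand) encodes the low-affinity ATP channel whose opening triggers potassium loss and the NLRP3 inflammasome. Its libraries were at 117, 114 and 112 CPM in control, 15.8, 14.5 and 15.0 CPM with LPS, and 22.0, 20.3 and 21.6 CPM with LPS plus BHB. Control lay far above both treated groups, which did not overlap each other. P2rx7 fell by 2.92 on the log2 scale with LPS (SE 0.06, adjusted p = 3.72e-20) and rose by 0.50 with BHB (SE 0.07, adjusted p = 1.76e-06), to a level still 5.36-fold under control.

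P2rx4 (chromosome 5, 122707544 to 122729738, plus strand) starts 16.1 kb beyond the end of P2rx7 and encodes a more ATP-sensitive channel found largely on lysosomes. It was at 361, 373 and 342 CPM in control, 92.6, 87.2 and 89.7 CPM with LPS, and 90.5, 83.0 and 92.7 CPM with LPS plus BHB. Control lay above both treated groups, which overlapped. It fell by 2.00 with LPS (SE 0.05, adjusted p = 9.12e-19), and with BHB its log2 fold change was -0.02 (SE 0.05, adjusted p = 0.798), which changed sign in 2 of 16 alternatives without a call. Within a library, P2rx7 stood at 0.360 to 0.386 times P2rx4 per kilobase in control, 0.196 to 0.200 times with LPS and 0.274 to 0.289 times with LPS plus BHB. The log2 ratio differed by -0.92 between LPS and control and by 0.52 between LPS plus BHB and LPS, each with p = 0.10 in the exact permutation test.

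Both enzyme genes fell with LPS. Entpd1 (chromosome 19, 40612366 to 40741602, plus strand) encodes the ectoenzyme that strips ATP and ADP to AMP at the cell surface. It was at 266, 267 and 246 CPM in control, 21.9, 23.0 and 21.8 CPM with LPS, and 28.4, 29.0 and 35.9 CPM with LPS plus BHB. The 3 groups did not overlap, and both treated groups lay far under control. Entpd1 fell by 3.55 with LPS (SE 0.07, adjusted p = 9.75e-19), an 11.7-fold difference, and rose by 0.48 with BHB (SE 0.08, adjusted p = 3.22e-05).

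Ada (chromosome 2, 163726584 to 163750239, minus strand) encodes adenosine deaminase. Its control libraries were at 38.4, 38.6 and 39.5 CPM, the LPS libraries at 8.08, 9.26 and 10.6 CPM and the LPS plus BHB libraries at 7.15, 7.15 and 9.74 CPM. Control lay above all treated libraries, and the treated groups overlapped. Ada fell by 2.06 with LPS (SE 0.11, adjusted p = 4.28e-13). With BHB the log2 fold change was -0.22 (SE 0.12, adjusted p = 0.150), which passed only without LPS plus BHB replicate 3 (-0.38, adjusted p = 0.0087).

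**Figure D3:**
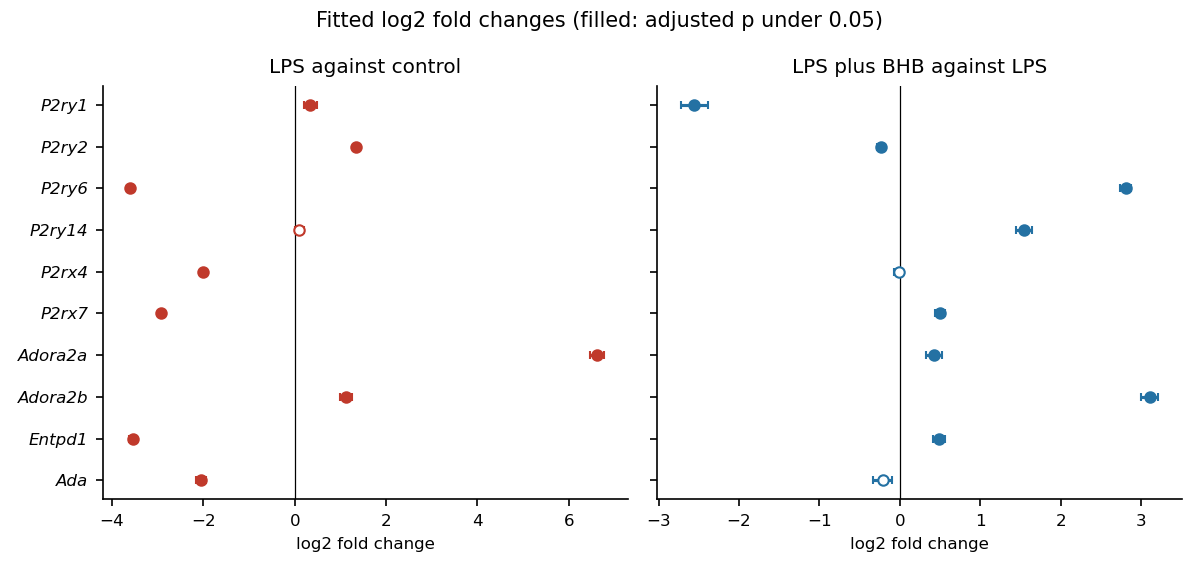
Fitted log2 fold changes of the 10 genes with LPS against control (left) and with LPS plus BHB against LPS (right), with bars of 1 SE and filled points for calls. With LPS the values run from -3.61 (P2ry6) to 6.62 (Adora2a), and with BHB added from -2.55 (P2ry1) to 3.10 (Adora2b).

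Promoters are shown for the pair of adjacent channel genes that fell together with LPS and for 3 genes that changed at least 2-fold with BHB. RefSeq windows of 300 bases on GRCm38.p6, from 250 before to 50 after an annotated start, were available for 8 of the 10 members (14 windows), and P2ry6 and Adora2a had no entry. Each is printed from its 5′ to its 3′ end on the strand of the gene, and capitals mark matches on either strand to any of 6 motifs: the cyclic AMP response element TGACGTCA, the AP-1 site TGANTCA, the E-box CACGTG, the hypoxia response core ACGTG (part of that E-box), the GC box GGGCGG, and the NF-kB site. For P2rx7 and P2ry14, which have 2 and 4 windows, the window farthest upstream is shown.
P2rx7, chr5:122643677-122643976, plus strand: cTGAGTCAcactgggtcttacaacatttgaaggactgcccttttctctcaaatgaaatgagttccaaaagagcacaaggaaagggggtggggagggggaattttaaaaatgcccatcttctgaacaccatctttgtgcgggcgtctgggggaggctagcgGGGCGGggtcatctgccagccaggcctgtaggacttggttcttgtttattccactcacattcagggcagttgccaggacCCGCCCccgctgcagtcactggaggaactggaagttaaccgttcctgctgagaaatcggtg
P2rx4, chr5:122707294-122707593, plus strand: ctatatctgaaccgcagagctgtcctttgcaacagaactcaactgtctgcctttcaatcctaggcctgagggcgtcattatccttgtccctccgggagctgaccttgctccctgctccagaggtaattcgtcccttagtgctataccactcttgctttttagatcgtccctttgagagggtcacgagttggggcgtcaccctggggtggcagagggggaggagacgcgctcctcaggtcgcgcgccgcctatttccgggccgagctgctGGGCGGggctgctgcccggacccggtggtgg
Adora2b, chr11:62248734-62249033, plus strand: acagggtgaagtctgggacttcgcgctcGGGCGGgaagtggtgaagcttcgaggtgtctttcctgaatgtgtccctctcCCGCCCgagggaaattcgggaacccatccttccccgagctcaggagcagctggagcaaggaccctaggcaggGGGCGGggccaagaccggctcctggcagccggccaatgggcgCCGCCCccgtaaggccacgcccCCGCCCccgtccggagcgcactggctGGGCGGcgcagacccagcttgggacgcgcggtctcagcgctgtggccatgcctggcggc
P2ry14, chr3:59153443-59153742, minus strand: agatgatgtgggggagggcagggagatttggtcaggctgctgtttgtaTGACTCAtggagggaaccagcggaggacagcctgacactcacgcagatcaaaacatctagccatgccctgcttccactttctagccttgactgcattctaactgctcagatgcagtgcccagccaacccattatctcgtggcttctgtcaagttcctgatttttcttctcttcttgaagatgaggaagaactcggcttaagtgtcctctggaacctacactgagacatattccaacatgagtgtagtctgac
P2ry1, chr3:61002535-61002834, plus strand: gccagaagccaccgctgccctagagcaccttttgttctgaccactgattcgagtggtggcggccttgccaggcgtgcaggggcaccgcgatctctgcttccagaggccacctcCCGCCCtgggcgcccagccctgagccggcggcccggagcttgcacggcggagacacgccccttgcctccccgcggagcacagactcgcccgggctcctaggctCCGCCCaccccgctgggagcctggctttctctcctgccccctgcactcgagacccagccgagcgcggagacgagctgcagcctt

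Entpd1 holds none of the 6 motifs in either of its windows. The capitals in Adora2b mark 6 GC boxes, those in P2ry1 mark 2 and that in P2rx4 marks 1, and 35.7% of all 32851 windows hold at least 1. The printed window of P2rx7 holds 2 GC boxes and an AP-1 site (TGAGTCA), and its other window none of the motifs. P2ry14 has an AP-1 site in the printed window (TGACTCA) and another (TGAATCA) in the window that starts at 59131279, and no match in its remaining windows. The AP-1 site is found in 7.81% of all windows. The E-box (7.15% of windows) and the hypoxia core (19.6%) were matched in P2ry2 alone among the 8 members with windows, the NF-kB site (8.46%) in Ada alone, and the cyclic AMP response element (1.79%) in none. A match is a string of letters in these windows and no measure of binding.

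Levels can be compared between genes after division by exon length, here in CPM per kilobase of the merged exons of the GENCODE M21 annotation. In control the order began with P2ry6 at 64.8 ± 2.66, P2rx4 at 51.1 ± 2.16 and Entpd1 at 46.5 ± 2.11 (SD, n = 3), and ended with Adora2b at 1.27, P2ry14 at 1.04 and Adora2a at 0.613 ± 0.263. Neighbours in this order did not overlap between libraries, except Ada (19.4) and P2rx7 (19.2). With LPS, Adora2a stood first at 60.8 ± 0.338, followed by P2ry2 at 23.1 ± 0.671 and P2rx4 at 12.8 ± 0.387. P2ry6, Ada and Entpd1 (5.31, 4.65 and 3.98) overlapped in turn there, as did P2ry1, Adora2b and P2rx7 (3.21, 2.76 and 2.53). With LPS plus BHB, Adora2a (81.5 ± 1.11) was followed by P2ry6 (37.2 ± 2.54) and Adora2b (23.8 ± 2.35), and P2ry1 was last at 0.545 ± 0.0980. Ada, P2rx7 and P2ry14 (4.003, 3.57 and 3.25) overlapped in turn in that group. The merged exons of P2ry14 span 11.1 kb, the longest of the members. They join the exons of all annotated transcripts, and the gene models used for counting are not given, so the order depends on these lengths. Before division, P2ry14 averaged 11.5 CPM in control and Adora2b 2.35 CPM.

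**Figure D4:**
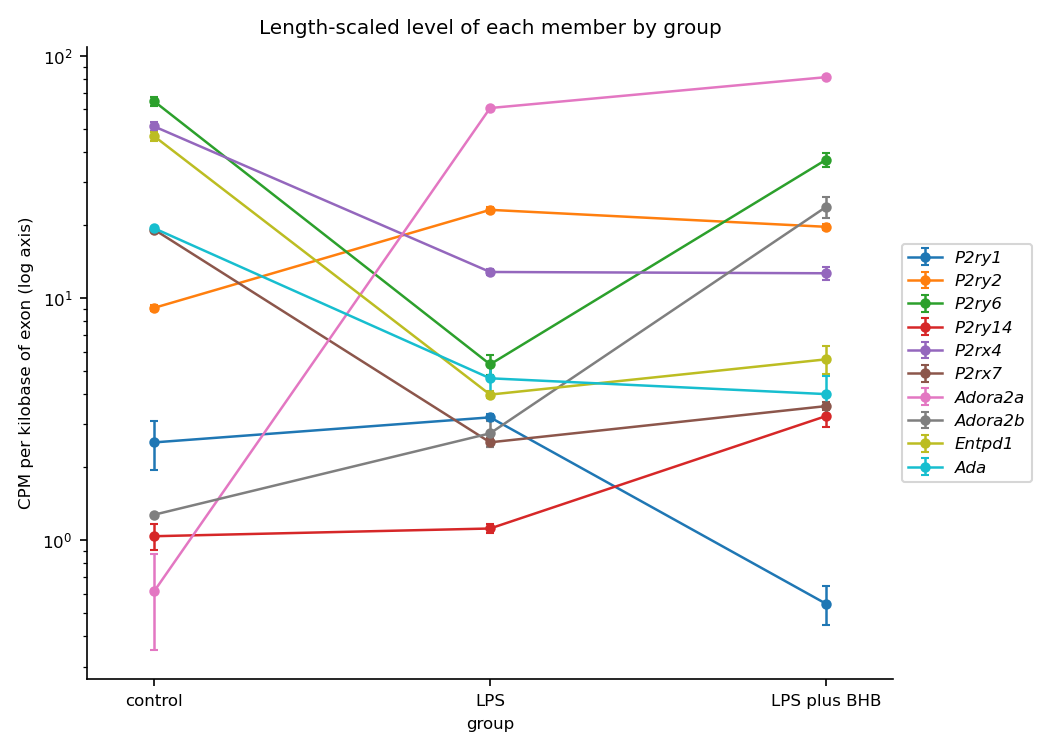
Mean level of each gene per kilobase of exon in each group (log axis), with bars for the SD over 3 libraries and lines that join the groups of 1 gene. Adora2a goes from the last place in control (0.613) to the first with LPS (60.8), and P2ry1 is last with LPS plus BHB (0.545).

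Against control, all 10 members passed with LPS plus BHB, 4 higher and 6 lower, where 78.4% of all genes passed (38% higher and 40.4% lower), and for all 10 the groups did not overlap (80.2% of all genes). Of these, 9 differed at least 2-fold, 4 higher and 5 lower, against 41.5% of all genes (18.2% higher and 23.4% lower). This comparison shares its libraries with the others and adds where each gene ended. Adora2a was 132-fold above control (log2 fold change 7.05, SE 0.15, adjusted p = 6.18e-12), or at 8.03 on the log2 scale without control replicates 2 and 3. Adora2b was 18.7-fold above control (4.22, SE 0.11, adjusted p = 2.55e-18), P2ry14 3.13-fold and P2ry2 2.16-fold. P2ry6 remained 1.74-fold under control (-0.80, SE 0.06, adjusted p = 7.04e-11), the smallest difference of the 10 in this fit, while with library totals alone it was at -1.13 and P2ry2, at 0.79, was the smallest. P2ry1 was 4.63-fold, P2rx4 4.04-fold, Entpd1 8.35-fold and Ada 4.85-fold under control. Scaling by library totals kept each of these 10 calls and directions.

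A wider list of 40 genes of purine signalling gave 21 tested genes, all of which passed with LPS (8 higher and 13 lower), while 9 passed with BHB added (5 higher and 4 lower) and 20 in LPS plus BHB against control (8 higher and 12 lower). Of all genes tested, 79.8%, 50.7% and 78.4% passed in these comparisons. Among the other purine receptors only P2ry12 and P2ry13 of 11 were tested. These ADP receptor genes sit in the same stretch of chromosome 3 as P2ry14, 62.7 and 54.3 kb from it. P2ry12 averaged 2.48 CPM in control and 0.125 CPM in LPS libraries (log2 fold change -4.25, SE 0.46, adjusted p = 2.96e-08). P2ry13 averaged 1.74 and 0.398 CPM (-2.11, SE 0.39, adjusted p = 5.68e-05). The LPS libraries held only 5, 4 and 2 counts of P2ry12 and 17, 8 and 10 of P2ry13. P2ry12, and Entpd4 among the enzymes, reached the level of the filter in control libraries only. For these genes a lower value with LPS was nearly given by their being tested. With BHB added, neither passed (adjusted p = 0.170 for P2ry12, which passed only without LPS plus BHB replicate 2 at 0.0491, and 0.553 for P2ry13). P2rx1, P2rx2 and Adora1 had 0 counts in every library, which allows up to 0.0107 CPM over all 9 libraries, and Adora3 had 0 to 15 counts.

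Of 17 other enzymes of nucleotide and adenosine breakdown, 11 were tested, and 5 rose and 6 fell with LPS. Of all genes tested, 38.4% were called higher and 41.4% lower in that comparison. Ampd3, an AMP deaminase that diverts AMP to IMP, was at 47.8, 50.6 and 51.8 CPM in control and 696, 713 and 734 CPM with LPS. All LPS libraries lay far above control, a log2 fold change of 3.83 (SE 0.05, adjusted p = 1.56e-22), and BHB lowered Ampd3 by 0.35 (log2 fold change -0.35, SE 0.05, adjusted p = 2.17e-06). Ampd2, another AMP deaminase gene, rose by 1.31 (SE 0.06, adjusted p = 4.17e-14) with LPS. Nt5e encodes the enzyme that makes adenosine from AMP outside the cell, and had 0 to 6 counts per library, too few to test.

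Of further enzymes, Cd38, Xdh and Adk were chosen after their values were seen. Cd38, which encodes an ectoenzyme that consumes NAD, was covered by 2, 14 and 26 counts in control, lowest in replicate 1, and by 981 to 1073 with LPS (log2 fold change 6.53, SE 0.25, adjusted p = 6.27e-10, a fold of 92.2). That fitted fold was 160 without control replicate 3 and 594 without control replicates 2 and 3. Against the 2 counts of control replicate 1 alone, the ratio of CPM was 636, with a 95% interval from 176 to 5256 that covers the counting error of those 2 counts only (exact Poisson). Control replicate 1 lay under the level of the filter, so Cd38 was tested through the treated libraries, where it was high. A higher value than in control was in part given by this. Cd38 rose again with BHB from 35.8 to 82.9 CPM (log2 fold change 1.21, SE 0.13, adjusted p = 1.74e-05). Xdh, xanthine dehydrogenase of the last steps to uric acid, went from 377 to 78.2 CPM with LPS (adjusted p = 7.72e-13), and Adk, which phosphorylates adenosine back to AMP, from 14.6 to 5.81 CPM (adjusted p = 8.45e-10). Neither passed with BHB added. Enpp1, which cleaves ATP to AMP and pyrophosphate, fell with LPS from 41.1 to 12.8 CPM and further with BHB to 8.62 CPM (adjusted p = 2.54e-05), and its difference between LPS plus BHB and control was -2.25 (SE 0.09, adjusted p = 1.09e-15).

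Of 12 genes for nucleotide release and nucleoside transport, 8 were tested, and 3 rose and 5 fell with LPS (38.4% and 41.4% of all genes tested). Gja1, which encodes a connexin, a gap junction protein that can release ATP, was at 2.39, 2.27 and 1.99 CPM in control, 30.2, 25.7 and 21.6 CPM with LPS, and 55.4, 59.6 and 61.5 CPM with LPS plus BHB. Its groups did not overlap, with a log2 fold change of 3.54 with LPS (SE 0.13, adjusted p = 3.27e-15) and 1.19 with BHB added (SE 0.09, adjusted p = 3.09e-09). Without control replicates 2 and 3 the LPS value of Gja1 was 3.43. Slc29a1, an equilibrative nucleoside transporter that moves adenosine across the membrane, averaged 83.8 CPM in control, 53.3 CPM with LPS and 76.2 CPM once BHB was added (0.52, SE 0.06, adjusted p = 5.94e-07). Some more were named after their values were seen, each with BHB added: Panx1, an ATP release channel, went from 9.65 to 6.26 CPM (adjusted p = 0.000117), the transporter gene Slc28a2 from 4.66 to 2.06 CPM (adjusted p = 2.40e-05), and Slc29a2 from 0.749 to 1.70 CPM (adjusted p = 0.00184).

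**Figure D5:**
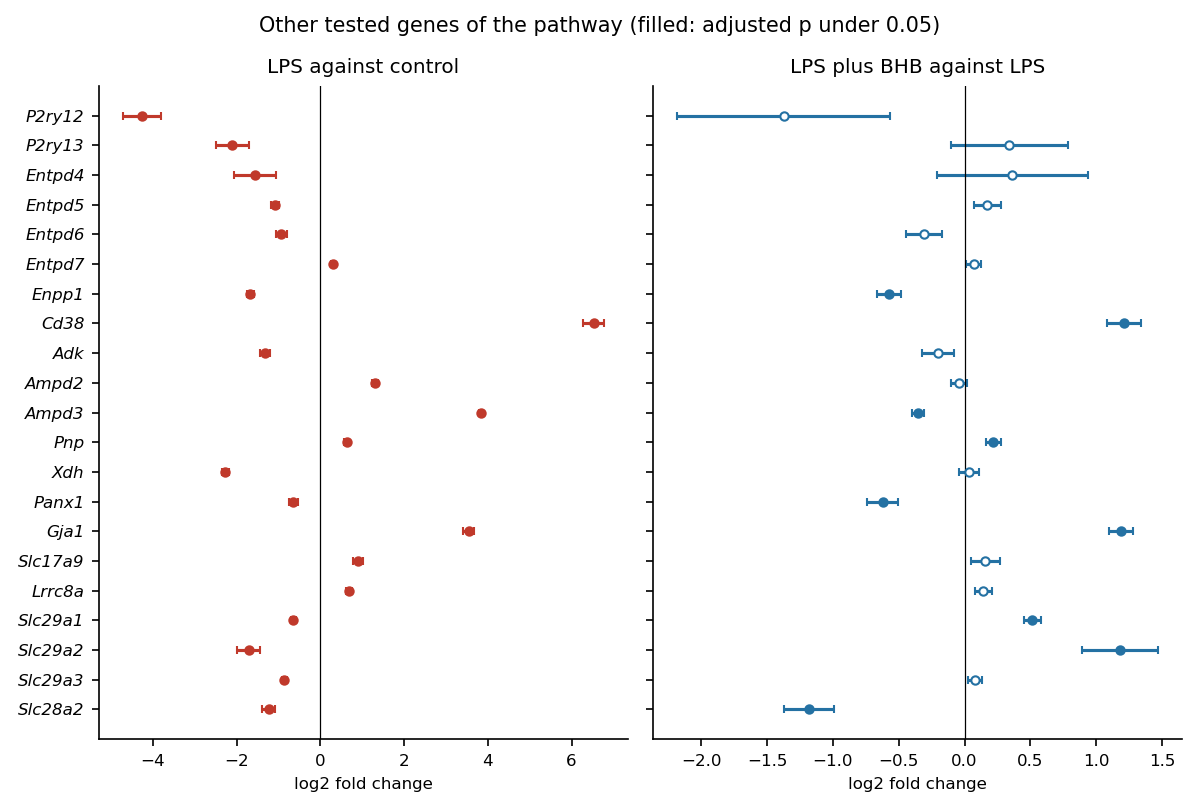
Fitted log2 fold changes of the 21 tested genes of the wider list with LPS against control (left) and LPS plus BHB against LPS (right), with bars of 1 SE and filled points for calls. All 21 are called with LPS and 9 with BHB added, and Cd38, Gja1 and Pnp are called higher in both. The LPS value of Cd38 rests on 2, 14 and 26 control counts and is 9.22 in place of 6.53 without control replicates 2 and 3.

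For each member, the genes with the nearest pattern were found by the Euclidean distance between log2 CPM values centred on each gene's mean over the 9 libraries, among 9327 candidates with a mean of at least 5 CPM. The nearest gene lay between 0.0976 (Txndc5 to P2ry2) and 0.830 (Spata13 to Adora2b) log2 units away. Nearest to P2ry6 was Sorl1 (distance 0.439), at 51.2, 4.40 and 33.1 CPM in control, LPS and LPS plus BHB. Nearest to P2ry1 was the integrin gene Itgb3 (0.828), at 15.6, 25.0 and 3.71 CPM. Clec4e, a C-type lectin gene, was nearest to Adora2a (0.398), Ldha, lactate dehydrogenase A, to P2ry14 (0.347), Casp2 to P2rx7 (0.166), Plekhm1 to P2rx4 (0.162), Wwp1 to Entpd1 (0.232) and Crot to Ada (0.304). The next in order for P2ry6 were Itpkb (0.463) and Synj2 (0.533), and for Adora2b Csrp2 (0.846), at 0.870, 1.82 and 12.6 CPM. These distances describe likeness over libraries that share their treatment and nothing more.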

How the data were processed

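Raw gene counts of 9 libraries, by symbol, form the deposited table, which the authors made from reads aligned with HISAT2 to mm10, per the submitters' processing notes. How reads were counted, on which gene models and with what use of strand, and the aligner's version, are not given in the sources. Per the labels' protocols, total RNA was extracted with Trizol and libraries followed standard Illumina methods. The members and gene lists were chosen with earlier results of these data known.

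Genes were filtered with filterByExpr (minimum count 10), which kept 14026 of 46095 and 99.956% of the counts. After TMM scaling, a robust quasi-likelihood model of the 3 groups, with no covariate, was fitted to the 9 libraries in edgeR 4.0.16 (R 4.3.3). Two-sided p-values were adjusted by the Benjamini-Hochberg method across the tested genes, with 0.05 as the threshold. The SE of a log2 fold change is its size divided by the square root of the F statistic, and is approximate. Errors of CPM are SD over 3 libraries. Depths of 29633411 to 32798920 counts leave counting error small except for genes with a few counts. No pair of libraries of a group agreed within sampling noise (chi-square per degree of freedom 3.07 to 10.5), so none was treated as a library deposited more than once.

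Named were all 10 members, the 3 smallest p of the wider lists in each comparison and the nearest patterns. Any other gene was chosen after its values were seen. Positions and exon lengths are from GENCODE M21 (GRCm38, the build mm10 names). Words of 31 bases shared, on either strand, with other genes' transcripts made up 23.0% of P2ry1, 4.50% of P2rx4 and under 2% of each other member. The antisense gene Gm37035 covers 23.1% of the exons of P2ry1, and the part of the shared words that lies there was not counted. Alternatives were DESeq2 1.42.0, its size factors, library totals, no filter, a block for replicate number, a model of only the 6 libraries in a comparison, and fits without single libraries or without control replicates 2 and 3.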

Additional observations from a re-analysis of the deposited data

How the results depend on the processing

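Over 480 fits of a member under an alternative, 473 kept the direction of each call and the side of the threshold, 6 lost a call, 1 gained one and none reversed a call. The lost calls were those of P2ry1 with LPS (5 fits) and of Adora2a with BHB added (DESeq2). The gained call was that of Ada with BHB added, without LPS plus BHB replicate 3. The causes were not tested. Over the alternatives the number of members called was 8 to 9 with LPS, 7 to 9 with BHB added and 10 in LPS plus BHB against control. The number of all genes called ran from 10164 to 11903, from 6509 to 7284 and from 9862 to 11561. Library totals alone turned the 5328 higher and 5662 lower genes of LPS plus BHB against control into 3922 and 7364, with a median shift of -0.33. Fits with 1 control library assume that it varies like the other groups.

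Same-numbered libraries deviated together little if at all (correlations from -0.02 to 0.04, none of 9 pairs over 0.1). The numbers were not taken as pairs in the main fit. A weak pairing is not excluded, as 6 of 9 libraries correlated best with their own number. With the replicate block 9, 8 and 10 members were called, as without it, and 11136, 7010 and 10908 of all genes. An exact sign-flip permutation test of the ratios over same-numbered libraries gave p = 0.25, the smallest that 3 pairs allow, and says nothing about their stability. Both ratios kept their directions without each single library. With 3 libraries a group, no ratio could pass 0.05.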
